A study of Mus musculus with 4 samples.

Results

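The genes of the proteasome, the protease that degrades ubiquitin-tagged proteins, were examined in cytoplasmic RNA of Neuro2A cells after depletion of 4.5SH. Members were all genes whose symbol begins with Psma, Psmb, Psmc, Psmd, Psme, Psmf or Psmg followed by a digit, taken from probe sets annotated to 1 gene symbol. The rule used names alone and no measured value. It gave 49 genes with 103 probe sets, out of 18193 genes with 34945 probe sets of 1 symbol. Of the 49, 19 belong to the core particle (Psma and Psmb), 21 to the regulatory particle by name (Psmc and Psmd), 3 to the activators (Psme), 1 is the inhibitor gene Psmf1 and 4 encode chaperones of core assembly (Psmg). The remaining gene, Psme3ip1, encodes an interactor of the Psme3 protein. Psmc3ip, counted with the regulatory particle because of its name, encodes the meiotic recombination factor Hop2 and no subunit. Psme2 was not analysed here, because its probe set is also annotated to the copy Psme2b.

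Neuro2A is an established mouse neuroblastoma cell line. The study compared cells depleted of 4.5SH, a short rodent RNA without coding function that resembles B1 short interspersed elements, with control cells, to find the genes with antisense B1 elements on which 4.5SH acts. Per the labels' protocols, cells received antisense oligonucleotides by lipofection at 30 nM, the supernatant of a CSK buffer lysate was taken as cytoplasm, and biotinylated cRNA was made from poly(A)+ RNA. Each group held 2 arrays, labelled as biological replicates. The oligonucleotide given to control cells and the origin of the replicates (the same or separate transfections) are not stated in the labels. Loss of 4.5SH and other effects of its oligonucleotides therefore cannot be told apart, and p-values measure only the spread between these samples. The annotation names no probe set for 4.5SH, so its level was not analysed here.

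The 26S proteasome is built from a barrel-shaped core particle and a regulatory particle that caps its ends. In the core, outer rings of alpha subunits (Psma genes) gate the entry, and inner rings of beta subunits (Psmb genes) carry the protease sites. The regulatory particle has a base, with a ring of ATPases (Psmc genes) that unfold substrates, and a lid with a deubiquitinase (Psmd genes), and neurons depend on the whole machine for protein turnover. Transcription of its genes can rise together through the factor Nrf1 (Nfe2l1), which binds antioxidant response elements in their promoters.

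The values are MAS5 signals, a linear intensity per probe set, and differences are given as log2 fold changes of signal + 16, knockdown over control, ± the standard error of the limma fit. The trimmed mean signal, leaving out 2% at each end, was 128 and 133 on the knockdown arrays and 149.5 and 144 on the control arrays. Of the 13 neuroblastoma markers with a probe set, Phox2a, Hand2, Gata2, Stmn2 and Prph read between 673 and 6853 on every array, while Th, Gata3 and Nefl were below the filter on dim probe sets and Dbh read 10.5 to 36.5. The summed signal of the 13 was 15180 and 15310 in the knockdown against 15540 and 15590 in the control, with Prph the largest part. At a limma adjusted p under 0.05, 3 of the 10 tested markers fell: Phox2a (-0.23), Gata2 (-0.45) and Stmn2 (-0.17). Chgb rose (0.33) and 6 did not pass, among them Mycn, which read 30.1 to 44.2. Of all tested genes 35.2% were lower and 9.79% higher. Summed glia markers read 79.1 to 103, and fibroblast markers 96.5 to 112. Among the glia markers Sox10 rose (0.76) on dim signals, 28.8 and 25.4 in the knockdown against 9.7 and 9.2, while Gfap and Mbp did not pass. The 5 immune markers summed to 418 and 421 on the knockdown arrays and to 739 and 819 on the control arrays. Most of this difference lay in Cd68, a lysosomal protein of macrophages (338 and 341.5 against 619 and 721), while Ptprc, the pan-leukocyte antigen, read at most 8.1 and Aif1 at most 12.5. The 4 nuclear RNAs, each at its brightest probe set, summed to 122 and 97.5 in the knockdown against 494 and 483 in the control, most of it Malat1. Malat1 was at -2.50 there, but the mean of its 4 tested probe sets was -0.60. Neat1 was at -0.72, and the mean of its 2 tested probe sets (-0.27) did not pass. Meg3 (0.36) did not pass, and Kcnq1ot1 was below the filter. The part of these differences in the results for proteasome genes was not tested.

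Proteasome mRNAs were mostly lower in the cytoplasm of depleted cells, and by modest amounts. Of the 49 genes, 47 passed the filter on dim probe sets. Psma8, a testis-specific alpha subunit, and Psmb11, a beta subunit of the thymus, did not, with signals of 0.3 to 1.8 and 1.9 to 5.6. Among the 47 tested genes 29 fell, 1 rose (Psmd12) and 17 did not pass, at a limma adjusted p threshold of 0.05 over all 11804 tested genes. Of all tested genes 35.2% were lower and 9.79% higher. The members' share of 61.7% lower has to be read against a second background, since all 47 lay among the brightest 25% of probe sets. Of the 7140 genes there, 46.4% were lower and 11.9% higher. The median log2 fold change was -0.23 over the members, -0.20 over those bright genes and -0.16 over all tested genes. Both knockdown arrays lay below both control arrays in 37 member genes and above them in 4, while 6 overlapped. Over all tested genes these shares were 51.6% and 19.7%. No such share was computed for the bright genes alone, here or in later comparisons of overlap. In bulk RNA of this kind, a smaller share of cells holding an RNA and less of it per cell cannot be told apart. An exact permutation test of 2 against 2 arrays has a smallest possible p of 0.333, so the calls rest on the variance limma pools over genes.

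The size of this shift depended on how the arrays were scaled. With quantile scaling 17 members fell and 9 rose, beside 22.6% and 17.7% of all tested genes, and when arrays were centred on their tested probe sets 17 fell and 8 rose, beside 24.2% and 17%. With spike-in scaling, on 9 hybridization controls, 35 fell and 0 rose, beside 46.1% and 4.44%. The limma fit with spike-in scaling left Psmd12 at 0.058, not passing. The median of all tested genes moved from -0.16 to -0.037, -0.031 and -0.31 in these settings. Changes of single genes are given on the deposited scale, with quantile values beside the main ones. Of the 29 lower genes 15 were lower under all 16 alternative fits: Psma2, Psma5, Psmb1, Psmb5, Psmb6, Psmb7, Psmc5, Psmd3, Psmd5, Psme1, Psme4, Psmg1, Psmg2, Psmg3 and Psmc3ip. Without knockdown replicate 1 the members' median was -0.20, beside -0.15 over all tested genes. Without control replicate 2 it was -0.25, beside -0.19.

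The alpha ring, which forms the gate of the core, held the largest falls of any subunit. Psma2 (Entrez gene 19166), the ring subunit alpha 2, read 1334 and 1325 on the knockdown arrays and 2177 and 2107 on the control arrays. The groups were clearly apart, with knockdown at 62.1% of control, and the fold change was -0.68 ± 0.06 (limma adjusted p = 1.1e-07). Psma5, the ring subunit alpha 5, read 2662 and 2573 against 3876 and 3819. It fell by 0.55 ± 0.05 (limma adjusted p = 1.79e-07), again without overlap, and its other tested probe set fell too, by 0.80 ± 0.07. With quantile scaling Psma2 was at -0.52 and Psma5 at -0.43, so both also lay below the typical gene. Psma4 (-0.22 ± 0.06) and Psma7 (-0.20 ± 0.05) fell by less, and Psma7 did so at both of its probe sets. Psma4 no longer passed without knockdown replicate 1 (-0.19), and neither passed with quantile scaling (-0.055 and -0.068). Psma1 (-0.12), Psma3 (-0.052) and Psma6 (0.013) did not pass. Psma6 rose, however, with quantile scaling (0.12) and when probe sets ending in _x_at or _s_at were left out (0.13). On the deposited scale the genes of a ring assembled from 1 copy of each of 7 subunits ranged from -0.68 to 0.013. The median of the 7 was -0.20, beside -0.16 over all tested genes and -0.20 over the bright genes in the second background. Of the 7 genes 4 fell, 0 rose and 3 did not pass. This share of 57.1% lower stands beside 35.2% of all tested genes and 46.4% of those bright genes. The 100 bases before the RefSeq start of Psma2, the member with the largest fall, are shown from build GRCm38.p6, plus strand, chr13:14613142-14613241, with the CCAAT box in capitals.
Psma2: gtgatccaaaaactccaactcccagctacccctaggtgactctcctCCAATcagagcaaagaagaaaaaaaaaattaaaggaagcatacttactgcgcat
This motif, searched as CCAAT on both strands, was found in 16 of 44 windows that RefSeq gives for 41 member genes (36.4%) and in 37.4% of all 32851 windows of the same 300 bases, 250 before and 50 after the start.

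All 7 constitutive beta subunits fell, with a median of -0.30. Of all tested genes 35.2% were lower, and of genes from the brightest 25% of probe sets 46.4%. The 3 catalytic subunits had the most negative fold changes among the 7. Psmb5, the chymotrypsin-like site and the main target of bortezomib, read 1323 and 1342 on the knockdown arrays and 1723 and 1777 on the control arrays. Psmb6, the caspase-like site, read 2729.7 and 2628 against 3482.5 and 3441. Psmb7, the trypsin-like site, read 4017 and 3951 against 5419.8 and 5126. No array of either group overlapped the other in these 3 genes, while 51.6% of all tested genes, bright and dim together, had both knockdown arrays below both control arrays. In the 3 genes the knockdown stood at 76.2%, 77.4% and 75.6% of control. The fold changes were -0.39 ± 0.06, -0.37 ± 0.05 and -0.40 ± 0.05 (limma adjusted p = 5.05e-05, 1.52e-05 and 2.7e-06). Each remained called with quantile scaling, at -0.23, -0.24 and -0.29. The structural subunits Psmb1 (-0.30 ± 0.05), Psmb2 (-0.28 ± 0.09), Psmb3 (-0.27 ± 0.06) and Psmb4 (-0.17 ± 0.05) also fell, and whether they differed from the catalytic ones was not tested. Of these Psmb1 alone passed with quantile scaling (-0.13), and Psmb2 did not pass without knockdown replicate 1 (-0.18). The antioxidant response element core, searched as TGACNNNGC on both strands, occurred in the windows of Psmb5, Psmb6, Psmc6, Psmd9, Psmd12 and Psme4. That is 13.6% of the member windows against 12.4% of all windows. The 100 bases before the start are shown for the catalytic members that hold it, with the match in capitals, from build GRCm38.p6: Psmb5 on the minus strand at chr14:54617996-54618095 and Psmb6 on the plus strand at chr11:70525257-70525356.
Psmb5: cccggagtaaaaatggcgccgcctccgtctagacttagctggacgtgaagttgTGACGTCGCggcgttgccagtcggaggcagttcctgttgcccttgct
Psmb6: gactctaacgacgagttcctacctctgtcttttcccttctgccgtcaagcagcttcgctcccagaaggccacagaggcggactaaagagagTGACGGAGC
Among the members holding the motif, Psmb5, Psmb6 and Psme4 fell, Psmd12 rose and Psmc6 (0.064) and Psmd9 (-0.26) did not pass. Psmd12 did not pass with spike-in scaling (0.058). Of all tested genes 35.2% were lower and 9.79% higher, and of genes from the brightest 25% of probe sets 46.4% and 11.9%. Whether the motif goes with a direction was not tested.

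The immunoproteasome subunits, which replace the catalytic ones in cells exposed to interferon, were measured as well. Psmb8, the counterpart of Psmb5, read 565 and 614 on the knockdown arrays and 811 and 779.9 on the control arrays, without overlap. It fell by 0.42 ± 0.08 (limma adjusted p = 0.000265), and by 0.24 with quantile scaling, but the mean of its 2 tested probe sets, at -0.26, did not pass. Psmb9, the counterpart of Psmb6, was the dimmest tested member, with 137 and 133 against 147 and 146, and its change of -0.11 ± 0.12 did not pass. Psmb10, the counterpart of Psmb7, read 563 and 533.5 against 574 and 674. Its value of -0.18 ± 0.09 did not pass (limma adjusted p = 0.109), but did without control replicate 1 (-0.29). Without control replicate 2 it was at -0.066 and did not pass. Of the 5 immune markers, Cd68 fell by 0.94 ± 0.09 and Csf1r (58.1 to 82.6) did not pass, while Ptprc, Aif1 and Cd3e were below the filter. Their part in the Psmb8 result was not tested. Whether Psmb8 differed from Psmb9 and Psmb10 was not tested.

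Of 21 genes of the regulatory particle 10 fell, 1 rose and 10 did not pass. This share of 47.6% lower stands beside 35.2% of all tested genes and 46.4% of genes from the brightest 25% of probe sets. The median was -0.15, beside -0.16 over all tested genes. In the core 12 of 17 tested genes fell, 0 rose and 5 did not pass (70.6% lower), with a median of -0.27. Without knockdown replicate 1 the median was -0.12 in the regulatory particle and -0.22 in the core, beside -0.15 over all tested genes. With quantile scaling the core had 7 lower and 1 higher gene (41.2% and 5.88%). The regulatory particle had 5 lower and 8 higher (23.8% and 38.1%). Of all tested genes 22.6% were lower and 17.7% higher in that setting. The median of the regulatory genes was then 0.025, and that of the core -0.087. With spike-in scaling 14 core genes (82.4%) and 12 regulatory genes (57.1%) fell and 0 rose in either. Among all tested genes 46.1% fell and 4.44% rose in that setting. Fold changes were negative in 20 of the 21 regulatory genes and in 9425 of all 11804 tested genes.

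The ATPase ring had a share of lower genes close to that of all tested genes. Its 6 genes encode the subunits Rpt1 to Rpt6, and 2 of them fell, 0 rose and 4 did not pass. This share of 33.3% lower stands beside 35.2% of all tested genes and 46.4% of the bright genes in the second background. The ATPase median was -0.032, beside -0.16 over all tested genes and -0.20 over the bright genes. Psmc5 (Rpt6) read 1145 and 1268 on the knockdown arrays and 1724 and 1679.8 on the control arrays, so that the groups were well apart. It fell by 0.49 ± 0.07 (limma adjusted p = 1.15e-05), and by 0.32 with quantile scaling. Psmc3 (Rpt5) fell by 0.21 ± 0.06, but did not pass without knockdown replicate 1 (-0.15) or with quantile scaling (-0.044). Psmc4 (Rpt3) was at -0.11 and did not pass. Leaving out control replicate 1 brought Psmc4 to -0.28, which passed, and leaving out control replicate 2 brought it to 0.047. Psmc1 (Rpt2, 0.13), Psmc2 (Rpt1, 0.051) and Psmc6 (Rpt4, 0.064) did not pass on the deposited scale. With quantile scaling these 3 genes rose, by 0.32, 0.14 and 0.23, whereas with spike-in scaling they were at -0.013, -0.091 and -0.078 and did not pass.

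The base also holds the scaffolds Psmd1 (Rpn2) and Psmd2 (Rpn1) and the ubiquitin receptor Psmd4 (Rpn10). Psmd2 fell by 0.17 ± 0.06, a call that was lost without knockdown replicate 1, knockdown replicate 2 or control replicate 1 (-0.15, -0.19 and -0.12). Psmd1 was at 0.12 ± 0.08 and did not pass, but rose with quantile scaling (0.29). Psmd4 gave opposite answers at its 2 tested probe sets. The brighter one, which represents the gene in the counts, read 1143 and 1073 on the knockdown arrays and 1469.9 and 1351.5 on the control arrays, and fell by 0.34 ± 0.07 (limma adjusted p = 0.000526 over genes). The other read 540 and 552.5 against 344 and 348, and rose by 0.64 ± 0.09 (limma adjusted p = 6.83e-05 over probe sets). Neither overlapped between the groups. Their mean was 0.15 and did not pass, so no single direction is given for Psmd4 RNA. Which transcript forms the probe sets read was not analysed here.

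The lid, which removes ubiquitin chains from substrates, had 4 lower genes, 1 higher and 3 that did not pass among 8. These shares of 50% lower and 12.5% higher stand beside 35.2% and 9.79% of all tested genes. Of the bright genes in the second background 46.4% were lower and 11.9% higher. The lid median was -0.11, beside -0.16 over all tested genes and -0.20 over the bright genes. Psmd3 (Rpn3) read 531.5 and 468 on the knockdown arrays and 686 and 695.5 on the control arrays. It fell by 0.46 ± 0.08 (limma adjusted p = 0.000262) without overlap, and by 0.26 with quantile scaling. Psmd8 (Rpn12) fell by 0.23 ± 0.06, Psmd13 (Rpn9) by 0.18 ± 0.07 and Psmd11 (Rpn6) by 0.15 ± 0.06. These calls were fragile: Psmd8 did not pass without knockdown replicate 1 (-0.20), Psmd13 without knockdown replicate 1 or control replicate 1 (-0.12 and -0.13), and Psmd11 without any 1 of the arrays (-0.18 to -0.11). With quantile scaling none of the 3 passed, and Psmd11 stood at 0.025. Psmd14 (Rpn11), the deubiquitinase itself, was at -0.070, Psmd7 (Rpn8), its partner, at 0.021 and Psmd6 (Rpn7) at 0.090, and none of these 3 passed. With quantile scaling Psmd6 (0.27) and Psmd7 (0.19) rose. Psmd12 (Rpn5) was the exception, with 1367 and 1505 on the knockdown arrays and 1249 and 1244 on the control arrays. Both knockdown arrays lay above both control arrays, at 115% of control on average, and the gene rose by 0.20 ± 0.07 (limma adjusted p = 0.0195). It did not pass without knockdown replicate 2 (0.13), and was at 0.37 with quantile scaling and at 0.058, not passing, with spike-in scaling. The stretch of the Psmd12 promoter that holds the antioxidant response element core is shown for comparison with the catalytic genes, from 250 to 151 bases before the start, build GRCm38.p6, plus strand, chr11:107479278-107479377. The match, in capitals, is on the opposite strand.
Psmd12: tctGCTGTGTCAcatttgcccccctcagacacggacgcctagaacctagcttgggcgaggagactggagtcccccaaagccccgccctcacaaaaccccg

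Assembly chaperones were lower for the core and mixed for the base. The 4 Psmg genes, whose products (PAC1 to PAC4) build the alpha ring, all fell, with a median of -0.41. Lower genes made up 35.2% of all tested genes and 46.4% of those from the brightest 25% of probe sets. Psmg1 read 1014 and 991 on the knockdown arrays and 1283 and 1312 on the control arrays, and Psmg2 read 1073 and 1076 against 1414 and 1529. Psmg3 read 310 and 344 against 449 and 484, and Psmg4 374 and 331 against 468 and 431. None of the 4 overlapped between the groups, while 51.6% of all tested genes, bright and dim together, had both knockdown arrays below both control arrays. The fold changes were -0.37 ± 0.06, -0.45 ± 0.07, -0.49 ± 0.09 and -0.34 ± 0.09 for Psmg1 to Psmg4 (limma adjusted p = 0.00019, 3.02e-05, 0.00034 and 0.00708). The call for Psmg4 was lost without knockdown replicate 2 (-0.26) and with quantile scaling (-0.16). Among the chaperones that assemble the base, Psmd5 read 723 and 839 against 1030.2 and 1014. It fell by 0.38 ± 0.08 (limma adjusted p = 0.000649). Psmd9 (-0.26 ± 0.11) and Psmd10, the oncoprotein gankyrin (0.12 ± 0.09), did not pass, though Psmd10 rose with quantile scaling (0.30).

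The activators open the core without the regulatory particle, and all 3 tested genes fell. For comparison, 35.2% of all tested genes and 46.4% of genes from the brightest 25% of probe sets were lower. Psme1 (PA28 alpha, an interferon-inducible activator) read 896 and 925.5 on the knockdown arrays and 1279.6 and 1258 on the control arrays. Psme3 (PA28 gamma, its nuclear relative) read 275 and 276 against 377.5 and 327, and Psme4 (PA200) read 1317 and 1455 against 1751 and 1753. The groups were apart in each, with fold changes of -0.47 ± 0.07, -0.33 ± 0.10 and -0.34 ± 0.06 (limma adjusted p = 1.9e-05, 0.0115 and 0.000377). Both knockdown arrays lay below both control arrays in 51.6% of all tested genes, bright and dim together. Psme3 did not pass without knockdown replicate 1 (-0.33) or control replicate 1 (-0.23), nor with quantile scaling (-0.14). The inhibitor gene Psmf1 (PI31) read 409 and 419.9 against 549 and 443. Its value of -0.24 ± 0.10 did not pass (limma adjusted p = 0.0544), and its control arrays were far apart. Without control replicate 2 it was at -0.39 and passed, without control replicate 1 it was at -0.093, and the mean of its 4 tested probe sets was -0.011, neither of which passed.

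Of the genes that share only the name, Psmc3ip read 637 and 654.5 on the knockdown arrays and 989 and 1061 on the control arrays. It fell by 0.65 ± 0.07 (limma adjusted p = 1.78e-06) without overlap, the second largest fall of all members, and also fell at its other tested probe set (-0.36 ± 0.08). Psme3ip1 (-0.18 ± 0.08) did not pass, but did without control replicate 2 (-0.23). Leaving out any other array gave -0.21 to -0.13, not passing. Without these genes 28 of 45 tested members were lower (62.2%), beside 35.2% of all tested genes and 46.4% of genes from the brightest 25% of probe sets.

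Compared directly, the median of the core differed from that of the regulatory particle by -0.13 on the log2 scale. Counting only particle subunits in the regulatory group, which leaves out Psmc3ip and the base chaperones, 8 of 17 genes fell with a median of -0.11, and the difference was -0.16. Without the immune and tissue-specific subunits, 11 of 14 core genes fell. These counts stand beside 35.2% lower of all tested genes and 46.4% of genes from the brightest 25% of probe sets. The same comparison was made on each array, as the mean log2 level of the core genes minus that of the regulatory genes. This difference was 0.56 and 0.52 on the knockdown arrays and 0.68 and 0.68 on the control arrays. Both knockdown arrays lay below both control arrays, and the difference of -0.14 between group means exceeded the gaps of 0.036 and 0.00092 between arrays of 1 group. It was -0.16 with quantile scaling. A shift that is equal for all genes of an array cancels in this measure. Of the 18 alternatives run, 6 leave the difference of medians at its value, as they shift all genes alike or change only the test or the genes around the members. The other 12 gave -0.18 to -0.076, and quantile scaling gave -0.11. It is a description of chosen genes and carries no p-value.

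**Figure D1:**
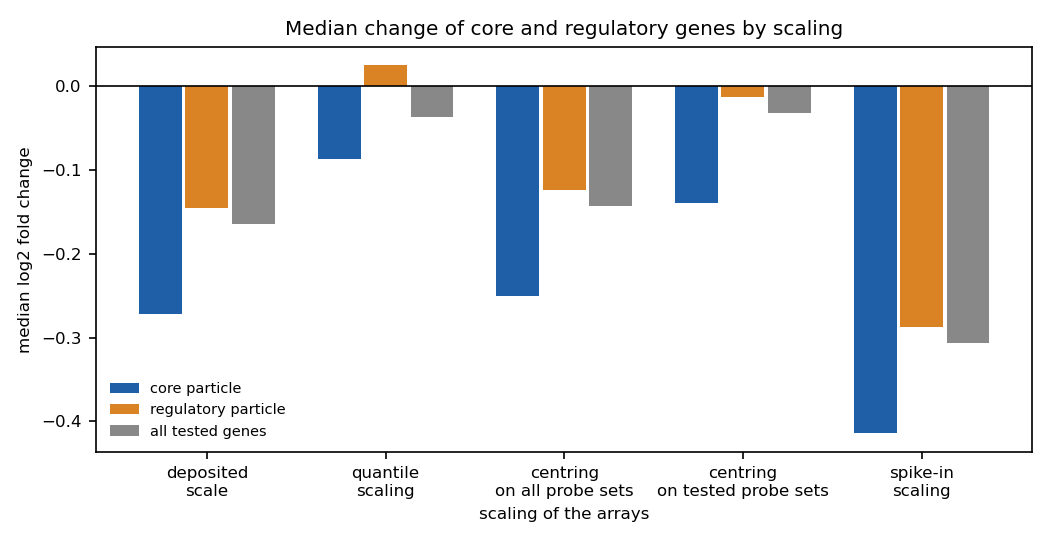
Median log2 fold change (vertical axis) of the core genes, the regulatory genes and all 11804 tested genes under 5 scalings of the arrays. The gap between core and regulatory bars is fixed in all scalings but quantile, which shift each array by 1 value, and the regulatory median changes sign between the deposited scale (-0.15) and quantile scaling (0.025).

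Probe sets of the same gene did not always tell the same story. Of the 103 member probe sets 77 passed the filter on dim values, and of these 36 fell, 3 rose and 38 did not pass. Among all 22519 tested probe sets 25.8% were lower and 9.73% higher. No share was computed for bright probe sets alone, the background that was higher when genes were counted. More than 1 tested probe set was available for 21 genes, and the calls were the same in 11 of them and differed in 10. In the core, Psmb1, Psmb4 and Psmb8 fell at the brightest probe set, while the values at their others did not pass (-0.22 and -0.40 for Psmb1, -0.078 for Psmb4 and -0.091 for Psmb8). In the regulatory group, Psmc4 fell at the dimmer of its probe sets (-0.21) and did not pass at the brighter (-0.11). Psmc6 rose at its middle probe set by 0.25 and did not pass at the others (0.064 and 0.37). Psmd6 fell at the dimmer by 0.17 and did not pass at the brighter (0.090). Psmd11 fell at 2 of 5 probe sets (-0.28 and -0.30), and the other 3 (-0.15, -0.12 and 0.17) did not pass in this fit. Among the activators, Psme3 fell at 1 of 2 probe sets (-0.33, with -0.17 at the other) and Psme4 at 2 of 3 (-0.34 at each, with -0.066 at the third). Fold changes of both signs occurred in 7 genes. Psmd4 was the only one of them called in opposite directions, and Psma6, Psmc2, Psmd7 and Psmf1 passed at no probe set.

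**Figure D2:**
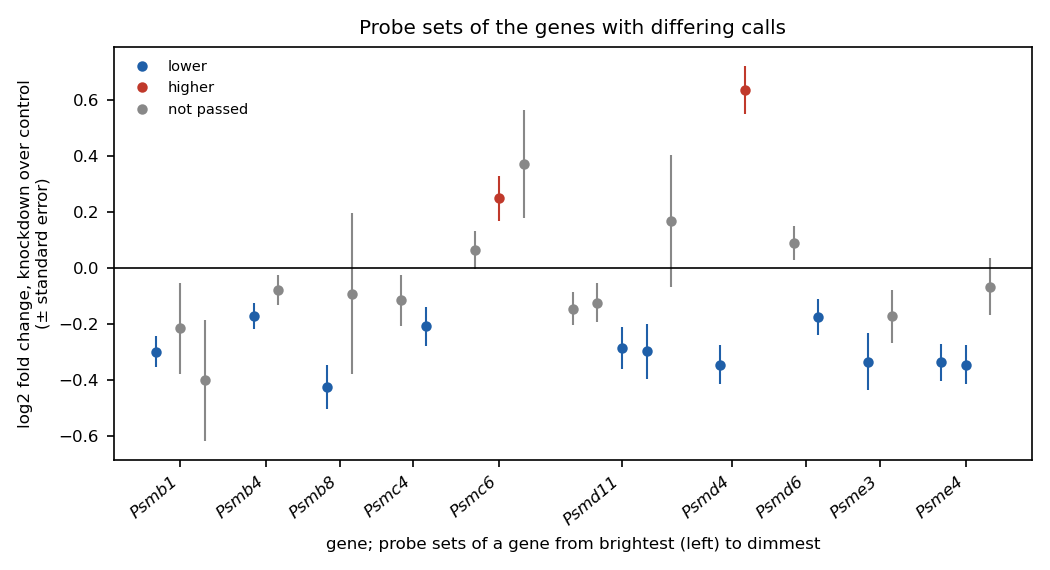
Log2 fold change (vertical axis, knockdown over control, ± standard error of the limma fit over probe sets) at every tested probe set of the 10 genes whose probe sets differ in call, ordered from the brightest to the dimmest within a gene. Psmd4 has 1 probe set at -0.34 and 1 at 0.64, and in the other 9 genes the difference lies between a called and an uncalled probe set.

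Of 13 listed partners of the proteasome 11 were tested, of which 6 fell, 4 rose and 1 did not pass, beside 35.2% lower and 9.79% higher of all tested genes. With quantile scaling 3 fell and 5 rose, beside 22.6% and 17.7%. Usp14, the deubiquitinase that docks on the regulatory particle, read 886 and 1024 on the knockdown arrays and 528 and 507 on the control arrays, and rose by 0.86 ± 0.08 (limma adjusted p = 3.58e-07). The mean of its 4 tested probe sets was 0.45. Fbxo7, which binds the inhibitor PI31, fell by 0.85 ± 0.10, the ubiquitin ligase Ube3c by 0.55 ± 0.11 and Sem1, the smallest lid subunit, whose name lies outside the rule, by 0.38 ± 0.05. Among 12 tested genes of ubiquitin shuttles and the p97 unfoldase system, 3 fell, 2 rose and 7 did not pass, and with quantile scaling 3 fell and 3 rose. Ufd1 (-0.81 ± 0.10) and Nsfl1c (-0.50 ± 0.09), cofactors of p97, fell. The cofactor Faf1 fell by 0.65 ± 0.08 and the shuttle Ubqln2 rose by 0.59 ± 0.06, but the means of their probe sets (-0.21 and 0.21) did not pass.

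Of 12 listed regulators of proteasome gene expression 10 were tested, of which 4 fell, 1 rose and 5 did not pass, shares close to the 35.2% and 9.79% of all tested genes. Nfe2l1, the gene of Nrf1, read 386 and 367 on the knockdown arrays and 512 and 403 on the control arrays, and its value of -0.26 ± 0.10 did not pass (limma adjusted p = 0.0505). The small Maf proteins, which pair with Nrf1 on DNA, were lower for Maff (-1.01 ± 0.10) and Mafg (-0.71 ± 0.15) and did not pass for Mafk (-0.032). Stat3 fell by 1.03 ± 0.07, and the mean of its probe sets was at -0.65. Nfe2l2, which encodes Nrf2, rose by 0.31 ± 0.10 at its brightest probe set, while the mean of its probe sets fell by 0.27. Of the 6 listed genes of ubiquitin and its activating enzymes only Uba6 had a probe set of 1 symbol, and its value of -0.21 ± 0.15 did not pass. The control gene Actb was at 0.067 ± 0.045 and did not pass, and Gapdh had no tested probe set with 1 symbol.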

How the data were processed

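Cytoplasmic RNA of 2 knockdown and 2 control samples was measured on 4 arrays of 45101 probe sets. The authors deposited linear intensities, a MAS5 signal for each probe set, per the submitters' processing notes. The scaling target is not given in any source used here. Probe sets were named from the platform annotation (34945 with 1 symbol, 932 with several, 9160 with none), and 34741 matched a RefSeq gene table by Entrez identifier. The log2 of signal + 16 was analysed on the deposited scale, so fold changes of dim genes are understated. Probe sets whose mean was at or above the median (a signal of about 16.4) were tested, and each gene was represented by its brightest one. Limma 3.58.1 in R 4.3.3 (lmFit, eBayes with intensity trend, two-sided, Benjamini-Hochberg adjustment over 11804 genes or 22519 probe sets) gave all tests. Only the main fit over genes was also run on simulated data with known changes. Those data held no shift common to all genes, and the fit over probe sets and the alternatives were not simulated. Alternatives were other pseudocounts, scalings, filters, thresholds and probe set choices, no trend, a replicate block and leaving out each array. Promoter windows came from a RefSeq table (GRCm38.p6). Figures used matplotlib 3.10.9.

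The members and lists were chosen with earlier results of these data known. Values on every array are given for the 5 largest falls and rises among called core and regulatory genes, the catalytic and immune subunits, Psmc3ip, and all Psme, Psmf and Psmg genes. Related lists name the 4 genes with the smallest p, and Nfe2l1, Mafk and Uba6 were added after their values were seen. The deviations of replicate 1 in both groups had a correlation of 0.0192, which cannot show whether replicate numbers paired the samples.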

Additional observations from a re-analysis of the deposited data

How the results depend on the processing

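With quantile scaling, centring on the tested probe sets and no intensity trend, 17 proteasome genes were lower in each, 7 of the core and 5 of the regulatory particle. Of all tested genes 22.6%, 24.2% and 27.5% were lower in these settings. Higher genes numbered 9 and 8 in the first 2 of these, 2 without the _x_at and _s_at probe sets, and 0 with no intensity trend, spike-in scaling, no filter or a threshold of 0.01. That threshold left 6 regulatory genes lower, and quantile scaling left 19 probe sets lower. The core median was -0.087 with quantile scaling, -0.14 and -0.25 after centring on tested and on all probe sets, -0.41 with spike-in scaling, -0.22 without a filter, -0.26 with a pseudocount of 64 and -0.26 as the mean of probe sets. The regulatory median was 0.025, -0.013 and -0.29 with quantile, tested and spike-in scaling, -0.10 as the mean of probe sets and -0.11 for subunits alone. Core minus regulatory was -0.076 without a filter, -0.15 without _x_at and _s_at probe sets, -0.15 as the mean of probe sets and -0.16 for subunits alone. Leaving out 1 array in turn gave core medians of -0.31 to -0.22, regulatory medians of -0.18 to -0.12 and differences of -0.18 to -0.077. The median of all tested genes was then -0.19 to -0.14. With a replicate block 28 genes were lower and 1 higher, 12 of the core and 8 of the regulatory particle lower. Of all tested genes 35.5% were lower and 10.2% higher in that fit. Whether equal replicate numbers mark paired samples is not stated in the labels. The cause of these changes was not tested. Psma8 and Psmb11 were too dim to be measured, and 2 arrays a group limit the precision of every value.

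Several genes changed sign, all but Psmd4 and Psmd11 among those not passing. With quantile scaling these were Psma1 (0.058), Psma3 (0.082), Psmb9 (0.032), Psmb10 (0.016), Psmc4 (0.052), Psmd11 (0.025), Psmd14 (0.10) and Psme3ip1 (0.0073). Centring on tested probe sets turned Psma1 (0.013), Psma3 (0.080), Psmb9 (0.027), Psmc4 (0.018) and Psmd14 (0.062). Spike-in scaling turned Psma6 (-0.13), Psmc1 (-0.013), Psmc2 (-0.091), Psmc6 (-0.078), Psmd1 (-0.025), Psmd6 (-0.052), Psmd7 (-0.12) and Psmd10 (-0.020). The mean of probe sets turned Psmc2 (-0.013), Psmd4 (0.15), Psmd6 (-0.042) and Psmd7 (-0.057), dropping _x_at and _s_at probe sets turned Psmc2 (-0.078), and the other Psmd4 probe set, an alternative chosen after seeing the data as were the probe set counts by scaling, gave 0.64. Leaving out 1 array, Psma6 ranged from -0.0038 to 0.029, Psmc4 from -0.28 to 0.047 and Psmc6 from -0.023 to 0.15.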
